A study of Mus musculus with 14 samples.

Results

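The 150 array probes described here read higher after 48 h of retinoic acid than in untreated mouse embryonic stem (ES) cells, and read level between colonies recovered from retinoic acid and ES cells in standard culture. They are 150 of the 42006 probes on the array and were chosen by their measured values, from the deposited log ratio of each spot turned to sample over reference, centred on the array's median and put on the log2 scale. A probe had to be well above background in the sample channel on both arrays of the 48 h retinoic acid group. It also had to lie less than 0.5 lower under LY294002 than in the control, and each colony group had to differ from the standard culture by less than 0.4 in either direction. Of the 7133 probes that met these conditions, the 150 with the largest rise from control to retinoic acid were kept. Their rise at 48 h (here the name of the difference from control that they were chosen for), the level colonies and the absence of a clear fall under LY294002 are therefore the choice itself and are given below as values, with no test. The files give each probe an identifier and a sequence, and 0 of the probes a gene, so the members are called by their identifiers.

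Total RNA of the ES cell line MC1 and its sublines was hybridised to 14 Agilent 2-colour arrays, 2 arrays in each of 7 groups. Sample RNA carried Cy3, and a reference shared by all arrays, made from pooled mouse cell line RNA mixed with ES cell RNA, carried Cy5, with no dye swap. The study followed undifferentiated colonies that appear in ES cell cultures under retinoic acid. Control cells (MC1-ZE3, strain label 129/Sv) were grown in standard medium to day 3. Other MC1-ZE3 cultures received 50 nM all-trans retinoic acid for 48 h, or the inhibitor LY294002 for 48 h at a dose labelled as 10 nM. A second group of untreated MC1-ZE3 cells, collected on day 3 on other slides, is called the standard culture here. Colonies of pluripotent cells were picked on day 4 of 50 nM retinoic acid from MC1-ZE16, and on day 7 of 50 nM retinoic acid from MC1 (strain label 129SvEv-Tac). The titles of the day 7 arrays also read "Intact" and "Lif+" (the cytokine LIF), which the titles of the other groups do not. The passage 10 group was MC1-ZE3 exposed to retinoic acid for 7 days, then carried for 10 passages without it and collected on day 3. The colony groups differ from the standard culture in line or subline as well as in treatment. Each colony group also lay on a slide of its own, day 7 with its own scan day, which cannot be told apart from the colonies. Control and 48 h retinoic acid arrays shared a slide. Replicate arrays are not stated to be separate cultures. Colonies were picked by hand, and the extraction notes of the other groups mention pooled colonies too, while those of day 7 name a well. The labelled cell type could not be checked against marker genes, because no probe could be given a gene.

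Retinoic acid, the active form of vitamin A, enters the nucleus and binds heterodimers of the receptors RAR and RXR, which sit on DNA and switch from holding genes silent to activating them. In ES cells it is a standard trigger of differentiation, and among its best known early targets are genes that break retinoic acid down, the receptor RARb and the Hox genes. The cytokine LIF in the medium acts through STAT3 to keep ES cells undifferentiated, and phosphoinositide 3-kinase, which LY294002 inhibits, also favours self-renewal and growth. None of the members could be tied to these genes.

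Each member is a 60-base DNA probe, and 7 that the results turn on are shown here as the files give them. Z00036245-1 ranked first and Z00044743-1 had the largest loess difference from control among members dim on the standard and colony arrays, and the capitals in Z00044743-1 mark AATAAA, the sequence of a common polyadenylation signal.
Z00036245-1: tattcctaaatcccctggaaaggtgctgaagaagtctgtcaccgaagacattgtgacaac
Z00044743-1: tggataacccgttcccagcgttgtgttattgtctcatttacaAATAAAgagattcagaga
Z00072629-1 was bright in control, retinoic acid and LY294002 cells and dim on every other array.
Z00072629-1: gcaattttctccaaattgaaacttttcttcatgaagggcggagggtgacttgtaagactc
Z00045505-1 had the largest difference from control, on the loess scale explained below, among members bright enough to measure in standard culture and colonies, and Z00074831-1 was higher with retinoic acid than in control yet was as high in untreated standard culture.
Z00045505-1: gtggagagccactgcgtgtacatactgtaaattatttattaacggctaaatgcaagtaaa
Z00074831-1: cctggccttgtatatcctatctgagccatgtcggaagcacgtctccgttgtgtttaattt
Z00011543-1 and Z00078063-1 were both lower at passage 10 and are the only pair of members that share as many as 16 bases, in capitals.
Z00011543-1: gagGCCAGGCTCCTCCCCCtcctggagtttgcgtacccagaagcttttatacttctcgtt
Z00078063-1: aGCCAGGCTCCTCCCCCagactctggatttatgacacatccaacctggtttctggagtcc
Where in the genome these sequences lie was not determined here, since no genome was used and the files list every probe as unmapped. None of the 150 shared a run of 25 bases, on either strand, with the 32851 RefSeq promoter and 2743 miRNA sequences searched. The members did not stand out in base composition: their GC content had a median of 45% (range 28.3% to 75%), against 45% over the 31053 probes tested. The motif AATAAA, searched on the probe strand as printed, was in 8 members (5.33%), against 7.38% of tested probes.

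What "level in colonies" rests on differed between members, and the brightness of the spots shows it. On the 6 arrays of the standard culture and the colonies, 82 members (54.7%) were well above background in Cy3 on every array and are called measured. A further 45 (30%) were not well above background on any of the 6 and are called dim, and 23 (15.3%) were above it on some arrays. These classes were drawn after the values were seen. Both retinoic acid arrays had all 150 members above background by the rule. The control arrays had 125 and 137, the LY294002 arrays 122 and 119, and the standard culture 87 on each. Day 4 colonies had 85 and 87, day 7 colonies 96 and 102, and passage 10 had 84 and 90. Over the whole array, 65.7% to 75.1% of all probes were above background on the control, retinoic acid and LY294002 arrays, 56.1% to 58.6% on the standard, day 4 and passage 10 arrays, and 66.1% and 66.3% on the day 7 arrays.

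The dim members filled the top of the ranking. Among the first 12 ranks 11 were dim, among the first 50 ranks 25 were dim and 15 measured, and among the last 50 ranks 9 were dim and 34 measured. In the dim class 0 members were above background on any standard or colony array, 45 on both retinoic acid arrays, 22 and 33 on the control arrays, 19 and 18 on the LY294002 arrays, and 2 and 1 at passage 10. The reference channel, which holds the same RNA on every array, also dimmed for these probes: 21 to 28 of the 45 were above background in Cy5 on the control and retinoic acid arrays, 10 to 15 on the LY294002 arrays and 5 to 7 on the others. Where both channels lie at background the extraction software sets a substitute value in each, and the deposited log ratio then reads about 0. That happened to 17 to 26 members (11.3% to 17.3%) on each standard, colony and passage 10 array, a share near that of all probes there (14.1% to 18%). On the control, retinoic acid and LY294002 arrays it happened to 0 to 3 members (up to 2%), beside 7.35% to 14.4% of all probes, and there the choice required signal on the retinoic acid arrays. For the dim class, level values in colonies thus compare sample signals that were not well above background on either side. The part that array sensitivity or slide had in this split was not tested.

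The dim members' rise is also the one that changed most with the scale. Taken from the mean signals with background correction and loess normalization, the scale used from here on unless the deposited ratio is named, the median rise from control to retinoic acid was 0.83 on the log2 scale over all 150 (range 0.07 to 1.90), beside 0.01 over all tested probes. By class it was 1.01 for the measured members, 0.36 for the dim ones and 0.53 for the mixed ones. The deposited ratios that made the choice gave 1.24, 1.15, 1.46 and 1.29 for the same 4 sets. By loess 50 members were at least 2-fold higher, of which 44 were measured, 2 dim and 4 mixed, beside 2.73% of all tested probes. By the deposited ratio 120 were, beside 5.38%. Both retinoic acid arrays lay above both control arrays for 141 members by loess, beside 40.5% of all tested probes, and for 134 by the deposited ratio, beside 32.3%. Since the members were chosen for this difference, nothing is read from these counts.

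Z00036245-1, first by the rule, shows what a rise at the detection limit looks like. Its deposited log2 ratio was -3.84 and -3.97 in control, 0.12 and -0.04 with retinoic acid, -2.14 and -1.27 with LY294002, -2.26 and -2.42 in standard culture, -1.95 and -1.94 in day 4 colonies, -2.60 and -2.32 in day 7 colonies, and -2.10 at both passage 10 arrays. The retinoic acid arrays stood apart from the other 12, and the deposited difference from control was 3.95. Its Cy3 spot, however, went only from 1.18 and 1.15 times its local background in control to 1.81 and 1.75 times with retinoic acid, and lay between 1.19 and 1.44 times on the other arrays. The control spots were not well above background, so the rise is a bound, at least 1.38-fold, and by loess the difference was 0.54.

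Z00044743-1, the fifth by the rule, had the largest loess difference from control among the dim members, 1.25. Its Cy3 spot read 1.34 and 1.32 times local background in control, 3.24 and 3.33 times with retinoic acid, 1.36 and 1.60 times with LY294002, 1.54 and 1.44 times in standard culture, 1.55 and 1.39 times in day 4 colonies, 1.41 and 1.42 times in day 7 colonies, and 1.56 and 1.42 times at passage 10. Both retinoic acid arrays were above the other 12, which overlapped one another. Since control spots were not well above background, the bound was at least 2.20-fold over control and at least 1.84-fold over LY294002. Ranks 2, 3, 4, 6, 7 and 9 (Z00049259-1, Z00024530-1, Z00041372-1, Z00026138-1, Z00033397-1 and Z00070499-1) had deposited differences of 2.72 to 3.82 and loess differences of 0.31 to 0.77, with retinoic acid spots at 1.42 to 2.35 times local background. Over the 12 members not well above background on either control array, the bound on the rise ran from 1.12-fold to 2.20-fold with a median of 1.28-fold.

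Z00072629-1, of rank 8, followed another course. By loess it read 1.97 and 3.08 in control, 3.51 and 3.68 with retinoic acid, 2.96 and 2.12 with LY294002, and from -0.16 to 0.10 on the 8 other arrays. All 6 arrays of the 48 h experiment were high, the 8 others lay together at 0, and the control arrays differed from each other by more than the second one differed from retinoic acid. Its Cy3 spot was 6.11 to 13.3 times local background on those 6 arrays and 1.12 to 1.49 times on the rest. The bound on the fall from control to standard culture, both untreated, was at least 4.02-fold. Z00032111-1 had the same shape, with 1.33 and 2.32 in control, 2.67 and 2.69 with retinoic acid, 2.00 and 1.50 with LY294002 and -0.12 to 0.24 elsewhere, and control was at least 2.24-fold above standard culture. Z00028616-1, of rank 10 and mixed in detection, read 0.05 and 1.64 in control, 2.07 and 2.28 with retinoic acid, 1.57 and 1.26 with LY294002 and 0.04 to 0.23 elsewhere. In all 3 the first control array was the lowest of the 6 arrays. Other members had control arrays far apart too, and how many was not counted. The median difference between these arrays over the members was 0.08 by loess and 0.21 by the deposited ratio that made the choice. Z00062783-1 read -1.07 and 0.91 in control and 1.11 and 1.15 with retinoic acid. Z00022594-1 read -0.46 and 1.21, then 1.16 and 1.04. By the deposited ratio Z00023360-1 read -2.88 and 0.99 in control and 1.08 and 0.16 with retinoic acid. Z00026940-1 read -2.59 and 0.85, then 0.84 and -0.36 on that scale, so its second control array was not below either retinoic acid array. These other members were named after their values were seen. In such members the rise rests largely on the first control array, and the cause of the gap was not tested.

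The 82 measured members were well above background on every control, retinoic acid, standard and colony array, and on the LY294002 arrays in all but 1 member on 1 array. Their Cy3 spots had a median of 7.88 times local background in control, 18.2 with retinoic acid, 10.4 with LY294002, 6.32 in standard culture, 5.28 and 8.29 in day 4 and day 7 colonies, and 5.87 at passage 10. In 60 of the 82, and in 97 of the 150, the retinoic acid arrays were the highest of all 14, as they were for 10.9% of all tested probes; the choice used 12 of these arrays, so this too is a description. The channels were also read apart, after loess and Aquantile scaling, which acts on the average intensity of both channels. With retinoic acid the sample channel (Cy3) differed from control by a median of 0.61 over the 150, beside -0.01 over all tested probes. The reference channel (Cy5) had a median of -0.07, beside -0.03, and differed by over 0.5 in 9 members. In size the Cy3 difference was larger than the Cy5 difference in 121 members (80.7%) and not in the others. Among the measured members the Cy3 difference ran from 0.02 to 1.85, so not every member's rise lay mainly in the sample channel. Relative to the reference, 55 members lay above it in control and 104 with retinoic acid, and 49 crossed from below to above.

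Among measured members Z00045505-1 had the largest loess difference from control. It read -4.25 and -4.28 in control, -2.46 and -2.26 with retinoic acid, -3.11 and -3.04 with LY294002, -3.21 and -3.15 in standard culture, -2.99 and -2.94 in day 4 colonies, -2.85 and -2.95 in day 7 colonies, and -3.18 and -3.25 at passage 10. Control was the lowest group and retinoic acid the highest, with every other group between them, and the rise of 1.90 (3.74-fold) was counted from the lowest group. All 14 arrays lay far below the reference. Z00073886-1 read -0.16 and -0.21 in control, 1.47 and 1.45 with retinoic acid, -0.08 and 0.03 with LY294002, -0.18 and -0.12 in standard culture, 0.20 and 0.12 in day 4 colonies, -0.45 and -0.22 in day 7 colonies, and -0.79 and -0.78 at passage 10. The retinoic acid arrays were the highest, 1.64 (3.11-fold) above control, and the standard arrays lay at the control level.

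Z00074472-1 and Z00050682-1 had the same single peak. Z00074472-1 read -1.32 and -1.24 in control, 0.18 and 0.48 with retinoic acid, and -1.58 to -1.18 on the 10 other arrays, a difference from control of 1.60. Z00050682-1 read -1.12 and -1.22 in control, 0.44 and 0.50 with retinoic acid, and -1.39 to -0.94 elsewhere, a difference of 1.64. Z00011614-1 stayed far below the reference in every group, at -4.17 and -4.16 in control, -2.74 and -2.58 with retinoic acid and -4.33 to -3.81 on the other 10 arrays. These 3 were named after their values were seen, as were Z00045505-1 and Z00073886-1 in this place. In each the retinoic acid arrays did not overlap any other group.

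With LY294002 the members lay closer to control than with retinoic acid. The choice let them lie above control without limit, but less than 0.5 below it on the deposited scale. The median difference from control was 0.25 (0.75 by the deposited ratio), beside 0 over all tested probes, and 119 of the 150 lay above control, as did 50.5% of all tested probes. At least 2-fold higher were 14 members (9.33%), against 1.43% of all tested probes, and 21 lay higher than with retinoic acid, beside 48.2% of all tested probes. The retinoic acid and LY294002 comparisons share the 2 control arrays, and the choice took probes low in control and left out those clearly lower with LY294002, so the values stand side by side and nothing is read from these counts. Both LY294002 arrays lay on a slide of their own, and that slide cannot be told apart from the inhibitor.

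The 3 members highest with LY294002 were Z00035930-1, Z00008537-1 and Z00043182-1. Z00035930-1 read -1.12 and -1.16 in control, 0.06 and 0.15 with retinoic acid and 0.28 and 0.23 with LY294002, then -0.90 and -0.99 in standard culture, -1.25 and -1.22 in day 4 colonies, -0.83 and -0.66 in day 7 colonies and -0.56 and -0.49 at passage 10. Both inhibitor arrays were above both retinoic acid arrays, and the difference from control was 1.39 for LY294002 and 1.24 for retinoic acid. Z00008537-1 differed from control by 1.32 with LY294002 and 1.01 with retinoic acid, and Z00043182-1 by 1.29 and 1.22. The 3 lowest were Z00064681-1, Z00022813-1 and Z00059481-1. Z00064681-1 read -1.67 and -1.68 in control, -0.38 and -0.22 with retinoic acid and -2.27 and -2.20 with LY294002, so that the 2 agents lay on opposite sides of control, at 1.37 and -0.56. Z00022813-1 differed from control by 1.05 with retinoic acid and -0.50 with LY294002, and Z00059481-1 by 1.00 and -0.43.

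The colonies were compared with the standard culture and the 48 h groups with the control, and these 2 untreated groups did not read alike for every member. The median difference of standard culture from control was 0.06, beside -0.02 over all tested probes, with a range of -2.46 to 1.73. At least 2-fold higher in standard culture were 5 members (3.33%), against 1.45% of tested probes, and 2 were at least 2-fold lower (1.33%), against 3.75%. The choice favoured probes that read low in control, which by itself raises this difference, so nothing is read from these shares. Among the measured members the standard culture lay nearer to retinoic acid than to control for 24 of 82, above retinoic acid for 6 and below control for 28. For those 24, a level colony is one that matches a baseline closer to the 48 h level than to control, though not always close to it. Control and standard culture lay on different slides and scan days, which cannot be told apart from the cultures.

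Z00074831-1 shows that baseline most clearly. It read -0.12 and -0.09 in control, 1.50 and 1.58 with retinoic acid, 1.15 and 1.18 with LY294002, 1.67 and 1.59 in standard culture, 1.71 and 1.73 in day 4 colonies, 1.29 and 1.23 in day 7 colonies and 1.32 and 1.34 at passage 10. Control was the only group below 1, and untreated standard culture was as high as treated cells. Its spots were among the brightest of the members, at 145 to 384 times local background, well clear of background in every group. Z00074738-1 was higher in standard culture than in control by 1.43, and Z00045505-1 by 1.08. Lowest in standard culture against control were Z00072629-1 at -2.46, Z00032111-1 at -1.80 and the measured Z00022813-1 at -0.97. Z00022813-1 read 1.60 and 1.47 in control, 2.50 and 2.66 with retinoic acid, 1.09 and 0.97 with LY294002, 0.53 and 0.60 in standard culture, 0.38 and 0.47 in day 4 colonies, 1.17 and 0.99 in day 7 colonies and 1.15 and 1.17 at passage 10. Its control arrays were above every standard, colony and passage 10 array.

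On the loess scale, which the rule did not use but which comes from the same spots, day 4 colonies stayed within 0.4 of standard culture for 149 members, day 7 colonies for 146 and both for 145. Of all tested probes 70.7%, 66.4% and 53.5% did so, and the counts restate the choice on another scale. Median differences were -0.01 and 0, and over all tested probes they were 0.01 and 0.02.

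Passage 10 is the one group the rule did not use, so its comparison with the standard culture is a test, although the standard arrays helped to choose the members. The comparison asks whether cells that had met retinoic acid for 7 days and then grew without it differ from cells in standard culture. Of the 150 members, 10 changed by limma at an adjusted p under 0.05 (6.67%), against 3.42% of all tested probes. At passage 10, 4 were higher (2.67%, against 1.66%) and 6 lower (4%, against 1.76%). Among the 79 members above background on all 4 of these arrays 10 changed (12.7%), against 4.52% of such probes, and all 10 were of the measured class. A further 52 members were not above background on any of the 4, so a change in them was not detectable. The median difference was -0.02, beside 0.01 over all tested probes, and 28 members (18.7%) had an unadjusted p under 0.05, near the 17.2% of all tested probes. The count depended on single arrays: it was 5 (3.33%) without the first passage 10 array, 3 (2%) without the second, 8 (5.33%) without the first standard array and 4 (2.67%) without the second. All tested probes were called at 0.847%, 1.22%, 3.01% and 0.979% in these fits. It was 0 when arrays were centred on their medians without loess, where 0.119% of all probes were called.

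The largest fall was that of Z00011543-1. It read -1.39 and -1.38 in control, 0.25 and 0.35 with retinoic acid, -0.83 and -0.83 with LY294002, -1.65 on both standard arrays, -1.52 and -1.67 in day 4 colonies, -1.23 and -1.49 in day 7 colonies and -2.34 and -2.36 at passage 10. Passage 10 was the lowest group and retinoic acid the highest, and the fall from standard culture was -0.70 (SE 0.08, adjusted p 0.000765 by limma). Z00073886-1, whose values are given above, fell by 0.63 (SE 0.08, adjusted p 0.000992) and was also lowest at passage 10. Z00078063-1, which shares 16 bases with Z00011543-1, read -1.08 and -1.16 in standard culture and -1.48 and -1.53 at passage 10, beside -1.12 and -1.14 in control and 0.24 and 0.33 with retinoic acid. It fell by 0.39 (SE 0.06, adjusted p 0.00496). Whether both probes of this pair read some of the same transcripts through the shared stretch was not tested.

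The other falls were smaller. Z00064681-1 read -1.43 on both standard arrays and -1.85 and -1.73 at passage 10, a fall of -0.36 (adjusted p 0.0230), and the colonies read -1.80 to -1.66. Z00035195-1 went from -0.94 and -1.09 to -1.34 on both arrays (-0.33, adjusted p 0.0444). Z00074831-1, the sixth fall, went from 1.67 and 1.59 to 1.32 and 1.34 (-0.29, adjusted p 0.0206). The passage 10 arrays of each of these lay below both standard arrays.

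The 4 rises were led by Z00022813-1, which was 0.60 higher at passage 10 than in standard culture (SE 0.08, adjusted p 0.00252); day 7 colonies read 1.17 and 0.99. Z00040138-1 read 0.08 and 0.27 in standard culture and 0.65 and 0.67 at passage 10 (0.48, SE 0.11, adjusted p 0.0408). Its spots were near the detection limit, at 1.63 to 2.36 times local background on these 4 arrays, and Agilent's ratios and the authors' value table each put the difference at 1.29. Z00035930-1, highest with LY294002, rose by 0.42 (SE 0.07, adjusted p 0.00753). Z00022637-1 read -2.71 and -2.77 in standard culture and -2.29 and -2.44 at passage 10 (0.38, SE 0.09, adjusted p 0.0478). By loess all 10 changes were under 2-fold, and both passage 10 arrays lay on the same side of both standard arrays in each.

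The limit at 150 fell in a smooth run of values. By the deposited ratio the last members inside, Z00054295-1, Z00074512-1 and Z00003997-1, differed from control by 0.862, 0.854 and 0.853. The first probes outside, Z00011350-1, Z00000446-1 and Z00065827-1, differed by 0.853, 0.851 and 0.851. Replicate arrays of a group differed over the members by a median of 0.07 to 0.12 by loess and 0.11 to 0.21 by the deposited ratio, so the limit separates no group of probes. Chosen by the same rule on loess values, 54 of the 150 would be kept, and on the authors' value table, which holds 104 of them, 79.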

How the data were processed

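Images were extracted with Agilent Feature Extraction (the submitters' processing notes), version 9.5.1.1 per the file headers. The deposited intensity values of Cy3 and Cy5 are mean spot signals that the software left without normalization, per the file headers. Log10 ratios of Cy5 over Cy3, deposited in the same files, come from signals already corrected there for background and dye. A value table of the authors, deposited beside them, holds log10 values for 25030 probes. Set against minus the scanner log ratio over 14655 probes, each column correlated at r of 0.999 or more once probes were centred, so its direction is sample over reference, its columns have medians of 2.24 to 2.32 and the source of its centring is unknown.

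Mean signals were corrected with normexp (offset 50) and normalized within arrays by loess in limma 3.58.1 (R 4.3.3, with version 1.17.8 of data.table). Control spots and the 1 to 24 flagged spots per array were left out, which removed no spot of a member. The 31053 probes (73.9%) whose Cy3 was well above background on both arrays in any group were tested, in 1 fit over 14 arrays with eBayes, two-sided, Benjamini-Hochberg adjusted over all of them. This fit was tried on simulated normalized values, while background correction and normalization were not. A fold given as "at least" sets the bright group against the higher of the dim probe's signal and the lowest signal well above background, per channel after loess and Aquantile scaling, and is open to dye bias. p-values measure the spread between 2 arrays a group, which may be technical, and the number of arrays limits precision.

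The members and lists were chosen with earlier results of these data known. Probes named are the 10 largest rises with retinoic acid, up to 5 changes each way at passage 10, the 3 highest and 3 lowest with LY294002 and in standard culture against control, the 3 on each side of the limit, and those said to be named after their values were seen (among them Z00074831-1 at passage 10 and the pair sharing 16 bases). The gene lists could not be used. Standard and passage 10 arrays of 1 number shared a slide (of 6 slides in all, scanned on 4 days), so the number pairs them by slide. Their deviations from group means correlated at 0.254. Those of LY294002 and passage 10, which shared no slide, correlated at 0.287, so the correlation does not show an effect of the slide. The pairing as a block is in the closing section, with the other normalizations, filters and left-out arrays tried.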

Additional observations from a re-analysis of the deposited data

How the results depend on the processing

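At passage 10 the 10 called members (4 higher, 6 lower) became 0, 0 and 0 under median centring without loess, which called 37 of all probes, and 5, 3 and 2 when only the 4 arrays compared were fitted (3.33% of members, 1.74% of all probes). Leaving out 1 array gave 3 to 8 in all (2% to 5.33%, beside 0.847% to 3.01% of all probes), 1 to 3 higher and 2 to 5 lower. With the slide pairing as a replicate block the counts were 11 (7.33%, beside 3.8%), 4 and 7. Agilent's ratios gave 11 (7.33%, beside 3%), a random slide term 10 (6.67%, beside 3.31%) and no filter 8 (5.33%, beside 2.19%). The value table gave 7 of the 104 members it holds (6.73%, beside 4.18%), and testing only probes above background on all 4 arrays gave 13 of 79 (16.5%, beside 6.16%). The median stayed at -0.05 to 0. Of 106 values of the 9 probes named by rule for this comparison, 67 stayed past the threshold, 39 did not and 0 reversed; Z00040138-1 moved most, from 0.48 to 1.29 by Agilent's ratios and in the value table. Of the medians, the rise with retinoic acid was 0.73 by median centring, 1.24 by Agilent's ratios and 1.13 in the value table, LY294002 minus control 0.75 and 0.80 in the last 2 of these, and standard culture minus control 0.25 in the value table. Day 4 colonies minus standard culture was 0.02 by median centring and -0.04 in the value table, and day 7 colonies -0.12 there. The rule kept 54 of the 150 members on loess values, 38 on median-centred ones, 79 in the value table, 50 and 64 with colony limits of 0.2 and 0.8, and 93 (without the first retinoic acid array) to 146 with 1 array left out. Why these differ was not tested. Depth of signal limits the 45 dim members, for which colony values are at background.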
